A study of Mus musculus with 23 samples.

Results

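Glucose uptake and glycolysis were followed through 10 genes in mouse left ventricle. They were the glucose transporters Slc2a1 and Slc2a4, the hexokinases Hk1 and Hk2, and the enzymes Gpi1, Pfkm, Aldoa, Pgk1, Pkm and Ldha. They were taken by name for their place in the pathway and were found by symbol and gene ID among the 49315 genes of the count table. All 10 passed the filter on low counts, as did 15500 genes in all. The tissue came from FVB mice, an inbred strain, and gave 23 RNA-seq libraries in 6 groups. Mice that started at an age of 3 months gave 4 libraries after e-cigarette vehicle with nicotine, 4 after e-cigarette vehicle and 4 after filtered air. Mice that started at 3 weeks gave 4 libraries with nicotine, 3 with vehicle and 4 with air. Every group was exposed for 3 months, with sessions of 4 hours on 5 days of each week, and no transgene or gene deletion is in the labels. The vehicle libraries carry the letters APG in their titles at the 3-month start and YPGVG at the 3-week start, under the same treatment label, and whether the vehicle differed between ages cannot be told from the labels. A difference of vehicle between ages cannot be told apart from the age contrast in vehicle or from the comparison of vehicle effects. The nicotine dose is not given in the labels. Libraries keep the numbers of the labels, so some numbers are skipped. The labels do not say that libraries of a group came from separate animals, so p-values reflect how far these samples scatter, and that scatter may be technical.

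Glycolysis splits glucose into pyruvate in the cytosol, and the heart uses it beside fatty acid oxidation, its main source of ATP. Glucose enters cardiomyocytes through GLUT1 (Slc2a1), which sits in the membrane at rest, and GLUT4 (Slc2a4), which insulin and contraction bring to the surface. Hexokinase then traps the sugar as a phosphate, and phosphofructokinase makes the step that commits it to glycolysis. Several of these genes are known targets of the hypoxia-inducible factors.

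Library totals ran from 12297955 to 17821550 counts, of which the 10 genes together took 0.871% to 1.03%. The smallest count behind a member was 151 for Slc2a1 and the largest was 69407 for Aldoa, so counting error weighs most on Slc2a1. Ventricular markers were abundant in every library, with a summed level of 76350 to 94970 CPM (library-scaled counts, per 1000000 counts, after TMM scaling). Atrial markers summed to 114 to 577 CPM, highest in vehicle library 2 and air library 1 of the 3-week start. Pfkm, for example, had SDs of 141, 249 and 202 CPM in nicotine, vehicle and air libraries of the 3-week start, against 52.8, 61.1 and 88.8 CPM at the 3-month start. Vehicle libraries 1 and 2 of the 3-week start lay below vehicle library 4 for 7 of the 10 genes, and air libraries 1 and 5 of that start lay above air libraries 2 and 4 for those 7 and for Gpi1 and Ldha. Libraries also differed in how gene levels moved with gene length. The Spearman correlation between exonic length and a gene's deviation from its mean, called the length correlation here, ran from -0.35 to 0.32 over the 23 libraries.

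Per exonic length, the aldolase gene had the highest level of the 10 and the resting transporter gene the lowest. Aldoa, which encodes the muscle aldolase that splits fructose bisphosphate, averaged 1309 CPM per kb over all libraries. Pfkm, the muscle phosphofructokinase, averaged 404 CPM per kb, and Pkm, the pyruvate kinase that forms pyruvate and ATP, averaged 321 CPM per kb. Ldha, the lactate dehydrogenase subunit that favours lactate formation, averaged 216 CPM per kb. Slc2a4 averaged 129.7 CPM per kb, Pgk1 (phosphoglycerate kinase) 116 and Gpi1 (glucose-6-phosphate isomerase) 96.3. Hk2, the insulin-responsive hexokinase, averaged 87.8 CPM per kb, Hk1, the more widely expressed hexokinase, 31.9, and Slc2a1 5.43. Gene counts do not separate the splice forms of Pkm or the transcripts of Hk1. Exonic length here joins the exons of all annotated transcripts of a gene and is not the length of the expressed mRNA. The order depends on it. Without division by length, Gpi1 averaged 621 CPM, Slc2a4 451 and Pgk1 261, and Pkm averaged 1606 CPM and Pfkm 1350.

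**Figure D1:**
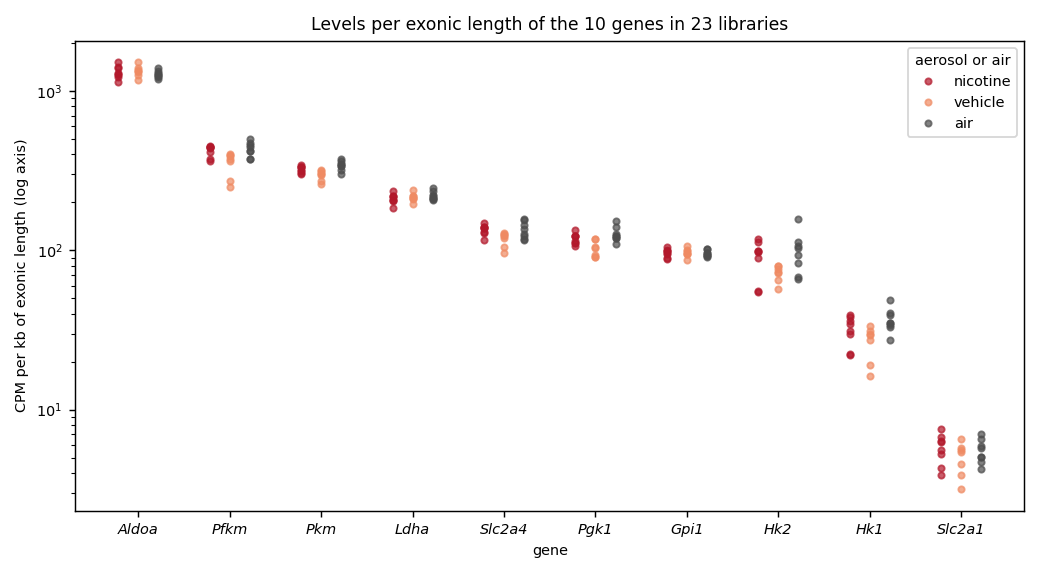
Level of each gene per kb of exonic length (CPM per kb, log axis) in the 23 libraries, by nicotine, vehicle and air with both starting ages together. Aldoa lies at 1134 to 1519 CPM per kb and Slc2a1 at 3.17 to 7.51, and the ranges of Slc2a4, Pgk1, Gpi1 and Hk2 overlap.

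The order of levels per exonic length held in nearly every library at most steps, with the same length used for a gene in each library. Aldoa was above Pfkm, Pkm above Ldha, Ldha above Slc2a4, Hk2 above Hk1 and Hk1 above Slc2a1 in 23 of 23 libraries. Pfkm was above Pkm and Slc2a4 above Pgk1 in 22 libraries, and Pgk1 was above Gpi1 in 20. Gpi1 was above Hk2 in 14 libraries, so these neighbours did not differ beyond their spread. Within libraries, Slc2a4 had 19.6 to 33.5 times the CPM of Slc2a1, and Hk2 had 1.43 to 2.8 times the CPM of Hk1. Among the other enzymes of the pathway, Ldhb (lactate dehydrogenase B) averaged 1024 CPM per kb, Eno3 (muscle enolase) 1022, Pgam2 (muscle phosphoglycerate mutase) 908, Gapdh 432.5 and Tpi1 (triosephosphate isomerase) 320.5. Hkdc1, Aldoc and Pklr did not pass the filter, and their largest counts in a library were 1, 6 and 1.

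The hexokinases and the resting transporter varied most between libraries. The SD of log2 CPM over the 23 libraries was 0.39 for Hk2, 0.37 for Hk1 and 0.31 for Slc2a1, against a median of 0.22 over the 7333 genes whose mean log2 CPM reached 4. Gpi1, Ldha and Aldoa had SDs of 0.07, 0.10 and 0.11, below the lower quartile of 0.16. Hk1 ran from 139.5 CPM in vehicle library 1 of the 3-week start to 415 CPM in air library 2 of the 3-month start. Gpi1 stayed between 563 and 682 CPM.

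The 10 genes fell into a set of 7 that varied together and a set of 3 that did not vary with them, both named after their correlations were seen. The larger set held Slc2a1, Slc2a4, Hk1, Hk2, Pfkm, Pgk1 and Pkm, and the Pearson correlations of log2 CPM over 23 libraries in its 21 pairs ran from 0.64 (Slc2a1 with Pgk1) to 0.92 (Pfkm with Pkm). Gpi1, Aldoa and Ldha, which all lie on chromosome 7, had correlations of 0.52 to 0.80 among themselves. The 21 pairs between the sets had correlations of -0.45 to 0.18. With the group means removed, the larger set had correlations of 0.63 to 0.90 and the smaller 0.69 to 0.91. These are descriptions over libraries that share depth, scaling and length correlation.

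**Figure D2:**
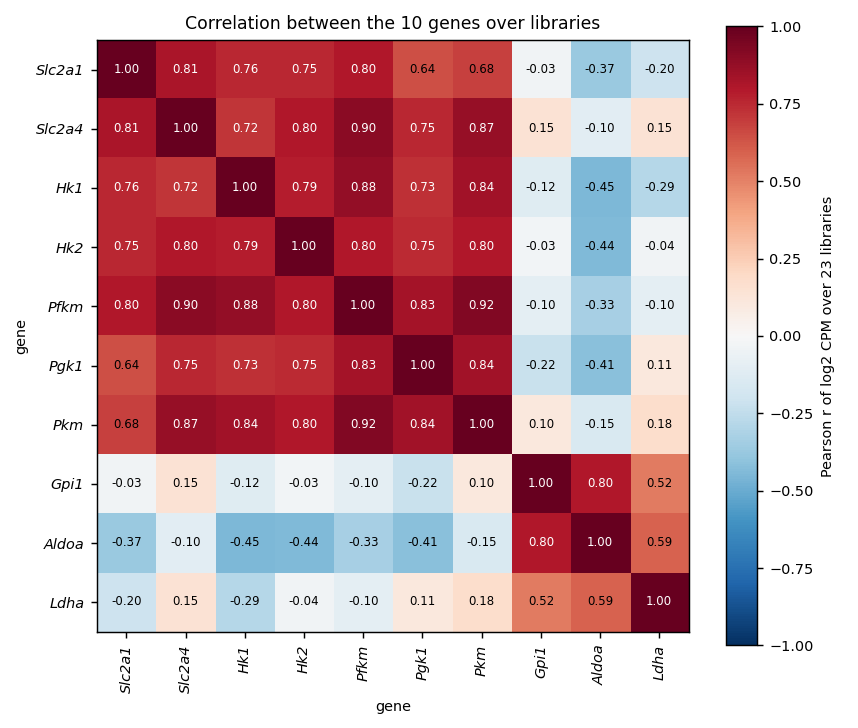
Pearson correlation of log2 CPM over 23 libraries between each pair of the 10 genes, with genes on both axes and the value printed in each cell. The 7 genes at the upper left have pairwise values of 0.64 to 0.92, the 3 at the lower right 0.52 to 0.80, and the pairs between them -0.45 to 0.18.

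Both sets moved with the length correlation, in opposite directions. Its Pearson correlation with log2 CPM over 23 libraries was 0.82 for Hk2, 0.74 for Hk1, 0.71 for Pfkm, 0.71 for Pgk1, 0.61 for Pkm, 0.58 for Slc2a1 and 0.54 for Slc2a4. It was -0.74 for Aldoa, -0.43 for Gpi1 and -0.40 for Ldha. Vehicle libraries of the 3-month start had length correlations of -0.24 to -0.11, against 0.0901 to 0.30 in air libraries of that start. At the 3-week start, vehicle libraries 1, 2 and 4 had -0.21, -0.28 and 0.19, against -0.0640 to 0.27 in air libraries. An offset for exonic length in the fit left the count of members past the threshold at 5 in vehicle against air at the 3-week start. In vehicle against air at the 3-month start the count with the offset was 0. The offset takes out a smooth trend with a gene's own length in each library. It does not take out a shift shared by genes of unlike length, so these counts do not measure the part of the length correlation. Members did not all follow their own length. Pgk1, the shortest at 2244 bases, had 0.71, Gpi1 at 6452 bases had -0.43 and Hk1, the longest at 8532 bases, had 0.74. The part of the length correlation in the members' values was not tested.

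**Figure D3:**
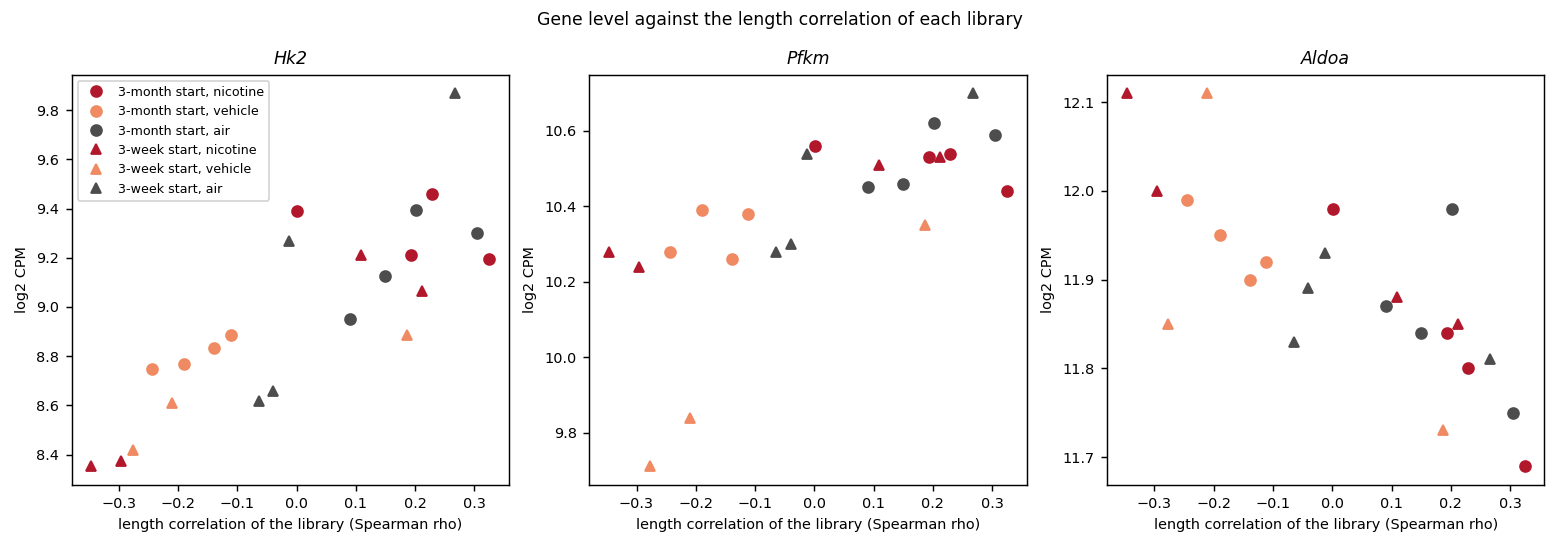
Level of Hk2, Pfkm and Aldoa (log2 CPM) against the length correlation of each of the 23 libraries, coloured by nicotine, vehicle and air, with circles for the 3-month start and triangles for the 3-week start. Hk2 and Pfkm are higher in libraries with a higher length correlation (r of 0.82 and 0.71) and Aldoa is lower (r of -0.74).

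Promoter windows are shown for 2 genes of the larger set, Hk2 and Pgk1, and 2 of the smaller, Ldha and Aldoa. These genes were picked as textbook hypoxia targets from both sets. Each window holds the 250 bases before a RefSeq transcription start in GRCm38.p6, read 5′ to 3′ on the strand of the gene. Capitals mark the core of the hypoxia response element, ACGTG or GCGTG on either strand. The windows are chr6:82774455-82774704 on the minus strand for Hk2 and chrX:106186850-106187099 on the plus strand for Pgk1. They are chr7:46845554-46845803 on the plus strand for Ldha and chr7:126799179-126799428 on the minus strand for Aldoa.
Hk2: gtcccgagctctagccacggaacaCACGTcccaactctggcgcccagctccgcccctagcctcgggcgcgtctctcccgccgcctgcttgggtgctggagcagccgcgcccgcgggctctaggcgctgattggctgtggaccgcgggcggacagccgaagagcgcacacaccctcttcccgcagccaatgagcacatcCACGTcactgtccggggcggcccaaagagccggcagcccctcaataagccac
Pgk1: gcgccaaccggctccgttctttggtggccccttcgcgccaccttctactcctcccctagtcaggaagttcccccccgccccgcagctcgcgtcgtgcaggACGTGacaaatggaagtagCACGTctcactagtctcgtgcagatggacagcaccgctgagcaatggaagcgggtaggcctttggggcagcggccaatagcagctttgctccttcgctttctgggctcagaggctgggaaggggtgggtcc
Ldha: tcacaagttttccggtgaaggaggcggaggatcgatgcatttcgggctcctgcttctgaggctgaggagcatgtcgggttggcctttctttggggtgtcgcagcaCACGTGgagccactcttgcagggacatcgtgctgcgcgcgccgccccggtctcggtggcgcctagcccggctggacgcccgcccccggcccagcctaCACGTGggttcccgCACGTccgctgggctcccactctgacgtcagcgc
Aldoa: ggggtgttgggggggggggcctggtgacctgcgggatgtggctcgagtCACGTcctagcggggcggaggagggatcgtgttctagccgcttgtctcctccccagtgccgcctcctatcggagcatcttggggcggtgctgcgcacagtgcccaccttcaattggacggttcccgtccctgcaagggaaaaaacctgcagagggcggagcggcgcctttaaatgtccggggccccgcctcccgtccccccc

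RefSeq gave 17 such windows for 9 of the 10 genes, Slc2a4 being the exception. ACGTG stood in 9 of these 17 windows, some of which overlap, and in 16.6% of all 32851 windows. GCGTG stood in windows of Hk1, Ldha, Pfkm and Slc2a1, in none of Aldoa, Gpi1, Hk2, Pgk1 or Pkm, and in 28.2% of all windows. Hk2 held ACGTG on the minus strand with its leftmost letter 226 and 52 bases before the start, and Pgk1 held it 150 bases before on the plus strand and 131 bases before on the minus strand. Ldha held 5 matches, of which 4 belong to 2 copies of CACGTG, a sequence that reads the same on both strands and stood in 6.02% of all windows. The first Aldoa window held 1 match. Ldha and Aldoa had further windows that are not shown, among them some without ACGTG. The bases that follow the Ldha start shown were held by 0 GENCODE transcripts. ACGTG thus stood in windows of genes from both sets, and in none of Gpi1 or Hk1. A match is a description of the letters and not a site.

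Vehicle aerosol against air at the 3-week start was the comparison in which members passed the threshold, an adjusted p of 0.05. In edgeR, 5 of 10 fell and 0 rose, namely Slc2a4, Hk1, Pfkm, Pgk1 and Pkm. Over all genes tested, 6.92% fell and 16.2% passed in either direction. The median log2 fold change was -0.37 over the 10 genes and 0.02 over all genes. Gpi1 and Aldoa stayed within 0.04 of 0 on the log2 scale.

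Of the transporters, Slc2a4 had 367, 336 and 416 CPM in vehicle libraries 1, 2 and 4, against 549, 406, 429 and 536 CPM in air libraries 1, 2, 4 and 5. The vehicle group was lower on average, and library 4 lay within the air range. The log2 fold change was -0.36 ± 0.11 (SE) with an adjusted p of 0.0377. Slc2a1 had 11.1, 13.5 and 19.5 CPM in vehicle libraries, against 22.8, 14.9, 17.6 and 24.8 CPM in air libraries. Its groups overlapped, and its log2 fold change of -0.44 ± 0.20 had an adjusted p of 0.121. In bulk tissue, fewer cells of a type and less RNA per cell cannot be told apart.

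Of the hexokinases, Hk1 had 139.5, 164 and 264.5 CPM in vehicle libraries, against 337, 233, 280.1 and 289 CPM in air libraries. Vehicle libraries 1 and 2 lay below every air library and library 4 lay among them. The log2 fold change was -0.59 ± 0.18 with an adjusted p of 0.0371. Hk2 had 391, 343 and 473 CPM in vehicle libraries, against 935, 393, 404 and 616 CPM in air libraries. The air values were spread widely, with library 1 highest, and the log2 fold change of -0.55 ± 0.24 had an adjusted p of 0.108.

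Of the middle enzymes, Pfkm had 916, 839 and 1304 CPM in vehicle libraries, against 1665, 1243, 1258 and 1493 CPM in air libraries. It had the smallest adjusted p of the 10, 0.0287, with a log2 fold change of -0.47 ± 0.13, and again vehicle library 4 was among the air values. Gpi1 averaged 619 ± 59.6 CPM in vehicle libraries and 615 ± 30.2 CPM in air libraries (SD, n = 3 and 4). Its log2 fold change was 0.01, with a 95% interval of -0.17 to 0.19. Aldoa averaged 3835 ± 518 CPM in vehicle libraries and 3730 ± 149 CPM in air libraries, a log2 fold change of 0.04 with an interval of -0.16 to 0.24. Steps on either side of Gpi1 and Aldoa therefore held genes past the threshold while these did not pass it.

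Of the late enzymes, Pgk1 had 204, 203 and 265 CPM in vehicle libraries, against 342, 247, 267 and 313 CPM in air libraries. Its log2 fold change was -0.38 ± 0.12 with an adjusted p of 0.0384, and library 4 overlapped the air range. Pkm had 1371, 1308 and 1493 CPM in vehicle libraries, against 1880, 1504, 1594 and 1730 CPM in air libraries. It was the 1 gene of the 10 with every vehicle library below every air library, as were 4.19% of all genes, and its log2 fold change was -0.27 ± 0.09 with an adjusted p of 0.0393. Ldha averaged 714.5 ± 74.9 CPM in vehicle libraries and 762 ± 52.2 CPM in air libraries, and its log2 fold change of -0.09 ± 0.09 had an adjusted p of 0.450.

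**Figure D4:**
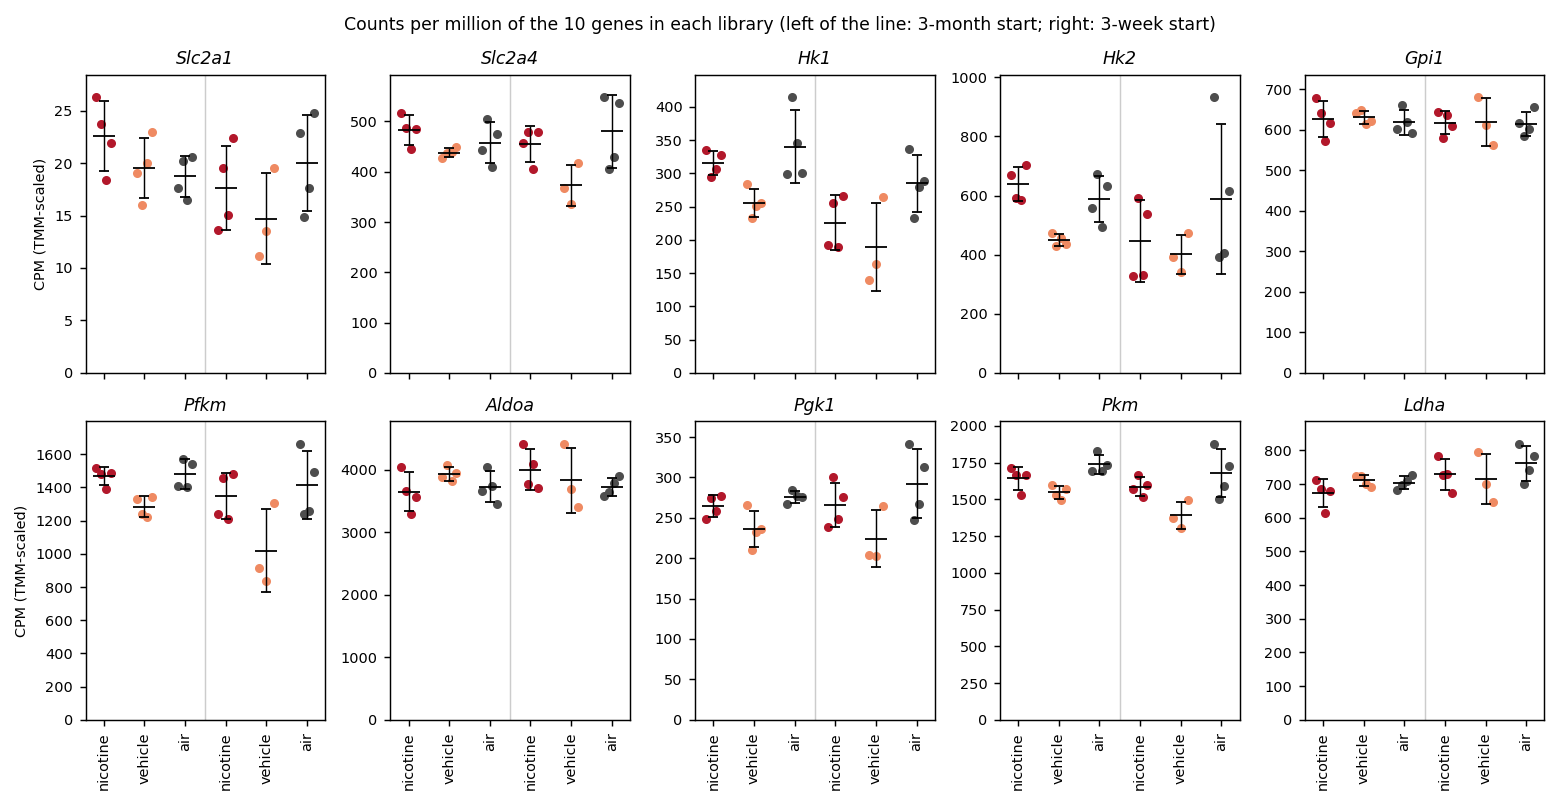
CPM of each gene in each library (points) by group, with the group mean and SD (bar and whiskers, n = 4, or 3 for vehicle at the 3-week start). Of the 3 vehicle libraries of the 3-week start, 2 lie below every air library of that start for Hk1, Pfkm and Pgk1 and 1 lies among them, and the group means of Gpi1 lie between 615 and 631 CPM.

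The calls rested on few libraries. Without vehicle library 1, vehicle library 2, air library 1 or air library 5, 0 of 10 members passed, and 0, 107, 0 and 170 genes passed over all genes. Without vehicle library 4, 7 members and 6969 of all genes passed, and without air library 2, 6 members and 3328 genes. Fitting vehicle and air of this age alone gave 0 members and 0 genes. The log2 fold changes of the 7 genes of the larger set stayed below 0 in all 16 alternatives tried, nearest to 0 at -0.01 for Hk2 without air libraries 1 and 5.

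Markers of other cells moved with these libraries, and their part in the result was not tested. Neutrophil markers had 4 of 4 negative log2 fold changes with 1 called lower, and summed to 0.661, 0.486 and 0.0629 CPM in vehicle libraries 1, 2 and 4, against 8.95, 0.315, 0.347 and 5.70 CPM in air libraries 1, 2, 4 and 5. Atrial markers had 6 of 6 positive log2 fold changes with 0 called, and summed to 149 to 577 CPM in vehicle libraries and 155 to 422 CPM in air libraries. Of the erythroid list, 0 of 5 were called, and it summed to 467 to 2363 CPM in vehicle libraries and 505 to 931 CPM in air libraries. Of the adipocyte list, 1 of 4 was called higher and the other 3 were negative. Its sum of 630.2 to 1357 CPM in vehicle libraries and 405 to 761 CPM in air libraries was nearly all Fabp4, which endothelium also expresses. Of the skeletal muscle list, 0 of 4 were called, and Myh4, Myh2, Myh1 and Actn3 were at 3 counts or fewer. Fibroblast and macrophage markers had 1 of 6 called lower each, endothelial markers 1 of 8 called higher, and smooth muscle markers 0 of 6 called. Ventricular markers, with 3 of 8 called higher and 2 lower, summed to 76350 to 86100 CPM in vehicle libraries and 76800 to 94970 CPM in air libraries.

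Neighbouring pathway lists were examined in the same comparison. Of 23 other glycolysis genes tested, 4 fell and 0 rose, and their median log2 fold change was -0.12. Those that fell were Pfkl (liver-type phosphofructokinase, -0.42 ± 0.10, adjusted p 0.0194), Pfkp (platelet-type phosphofructokinase, -0.46 ± 0.12, adjusted p 0.0239), Pgam1 (phosphoglycerate mutase 1, -0.63 ± 0.17, adjusted p 0.0274) and Pfkfb3 (which makes the phosphofructokinase activator fructose-2,6-bisphosphate, -0.76 ± 0.25, adjusted p 0.0441). All 3 phosphofructokinase genes were thus past the threshold.

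Of 16 glycogen genes, 4 fell and 0 rose, and the median was -0.44. Pygm, the muscle glycogen phosphorylase that releases glucose units, had 795, 739 and 1305 CPM in vehicle libraries, against 1702, 1242, 1284 and 1569 CPM in air libraries, with a log2 fold change of -0.61 ± 0.16 and an adjusted p of 0.0260. Pygb (brain-type phosphorylase) fell by 0.70 ± 0.20, Gys1 (muscle glycogen synthase) by 0.73 ± 0.20 and Pgm1 (phosphoglucomutase, which links glycogen to glycolysis) by 0.44 ± 0.13 on the log2 scale. The enzymes of both glycogen making and glycogen breakdown were among those lower.

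Of 6 lactate and pyruvate transport genes, 0 passed in edgeR. Of 20 glucose uptake signalling genes, 5 fell and 2 rose. Irs2, an insulin receptor substrate, had 3.45, 14.3 and 12.5 CPM in vehicle libraries, against 261, 43.2, 12.2 and 229.8 CPM in air libraries, and the log2 fold change was -3.75 ± 0.73 with an adjusted p of 0.0141. Air libraries 1 and 5 were high and library 4 was as low as the vehicle libraries. Akt1, the kinase downstream of it, fell by 0.42 ± 0.12, Mef2d, a transcription factor of muscle, fell by 0.41 ± 0.12, and Igf1r, the receptor of insulin-like growth factor 1, rose by 0.38 ± 0.11 on the log2 scale. Of 18 genes in a hypoxia list, 2 fell and 0 rose, namely Egln3 (a prolyl hydroxylase, -0.71 ± 0.20) and Ddit4 (an mTORC1 inhibitor, -2.02 ± 0.68). The list holds targets of the hypoxia-inducible factors, the factor genes Hif1a and Epas1, and Slc2a3, which is also among the other glycolysis genes. The log2 fold change of Ddit4 was 0.002 without air libraries 1 and 5. Of the 14 list genes named in this comparison, 14 lost the call without vehicle library 1 or air library 1, 13 without vehicle library 2 and 12 without air library 5.

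At the 3-month start, vehicle against air gave no call in edgeR, though 5 genes had groups that did not overlap. In edgeR 0 of 10 members passed and 0% of all genes did, with 2 members at an unadjusted p under 0.05. DESeq2 gave 0 members, and limma voom with library quality weights gave 4 members and 2721 genes. Fitted on these groups alone, edgeR gave 4 members and 2635 genes. In 5 of 10 members every vehicle library lay below every air library, as in 11.6% of all genes.

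Hk1 had 284, 232, 251 and 255 CPM in vehicle libraries, against 299, 415, 345.5 and 300.0 CPM in air libraries. The groups did not overlap, and the log2 fold change was -0.41 ± 0.17 with an adjusted p of 0.319. Hk2 had 474, 430.0, 456 and 436.5 CPM in vehicle libraries, against 558, 672, 495 and 631 CPM in air libraries, a log2 fold change of -0.39 ± 0.22 with an adjusted p of 0.405. Pfkm had 1331, 1243, 1223 and 1344 CPM in vehicle libraries, against 1407, 1574, 1404 and 1541 CPM in air libraries, a log2 fold change of -0.20 ± 0.12. Vehicle was the lower group for each, with all libraries apart.

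Pgk1 had 265, 211, 233 and 236 CPM in vehicle libraries, against 267, 285, 277 and 275 CPM in air libraries, a log2 fold change of -0.22 ± 0.11. Vehicle library 1 came close to the lowest air library. Pkm had 1597, 1531, 1497 and 1569 CPM in vehicle libraries, against 1690, 1828, 1695 and 1737 CPM in air libraries, a log2 fold change of -0.17 ± 0.08 with an adjusted p of 0.348. The other 5 genes overlapped, with log2 fold changes of 0.06 for Slc2a1, -0.06 for Slc2a4, 0.03 for Gpi1, 0.08 for Aldoa and 0.02 for Ldha. None of these 5 had an adjusted p under the threshold, nor did the other 5.

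The ratio of Pfkm to Aldoa within a library does not depend on the scaling of libraries. It was 0.305 to 0.343 in vehicle libraries of the 3-month start and 0.376 to 0.446 in air libraries. At the 3-week start it was 0.208 to 0.383 in vehicle libraries and 0.332 to 0.465 in air libraries. The ratio is not free of the length correlation, with which Pfkm rose and Aldoa fell (r of 0.71 and -0.74). That correlation was -0.24 to -0.11 in vehicle and 0.0901 to 0.30 in air libraries of the 3-month start. Its part in the ratio was not tested, nor was the share of other gene pairs that separate. Erythroid markers had 5 of 5 positive log2 fold changes in vehicle against air at the 3-month start, with 0 called, and summed to 660.3 to 893 CPM in vehicle and 304 to 722 CPM in air. Of the adipocyte list 3 of 4 were negative and 0 were called, and its sum, nearly all Fabp4, was 667 to 912 CPM in vehicle and 440.1 to 636 CPM in air. Of 6 atrial markers 4 were negative and 0 were called. The endothelial list, 0 of 8 called, summed to 1115 to 1366 CPM in vehicle and 1031 to 1184 CPM in air. Their part in the members' values was not tested. None of the 5 pathway lists held a gene past the threshold in this comparison, where 2200 of all genes had an unadjusted p under 0.05 in edgeR.

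**Figure D5:**
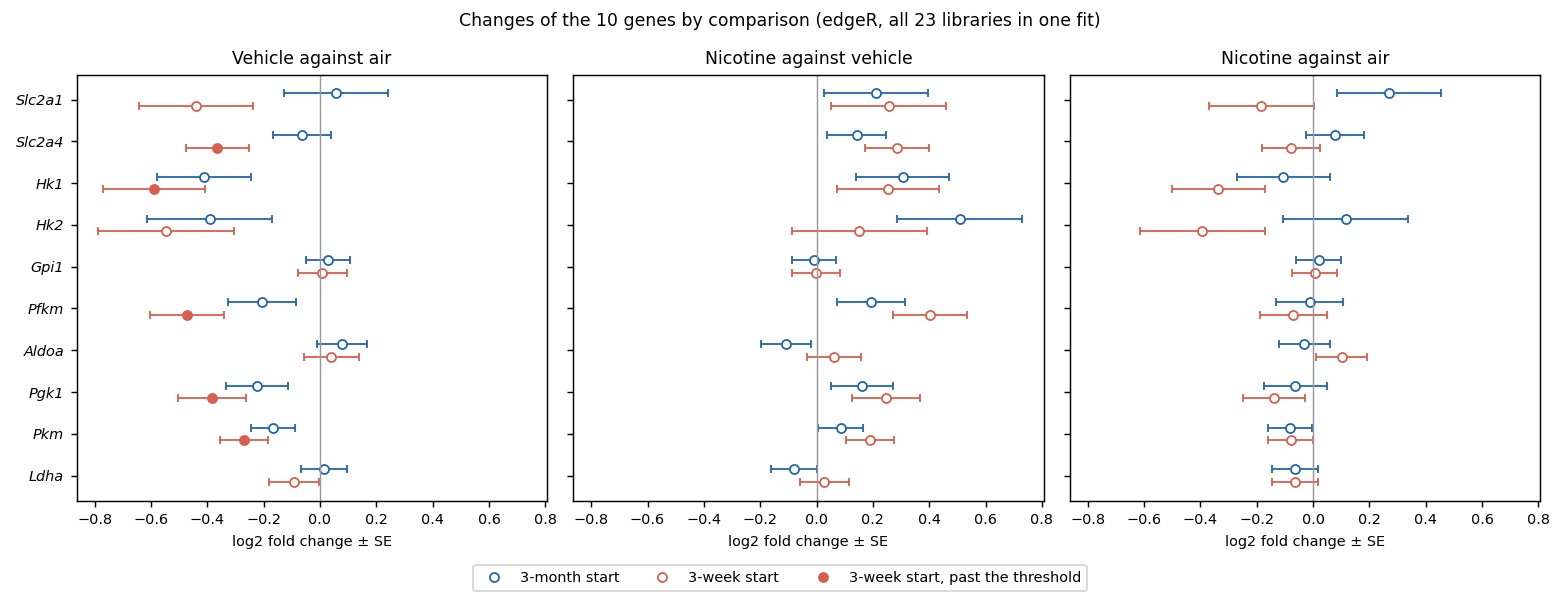
Log2 fold change with its SE for each gene in vehicle against air, nicotine against vehicle and nicotine against air, for the 3-month start (blue) and the 3-week start (red), from edgeR with filled points past the adjusted threshold. The filled points are Slc2a4, Hk1, Pfkm, Pgk1 and Pkm in vehicle against air at the 3-week start, between -0.59 and -0.27.

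Nicotine against vehicle addresses what nicotine adds to the aerosol, and no member passed in edgeR at either age. At the 3-month start 0 of 10 members and 0% of all genes passed, with 1 member at an unadjusted p under 0.05. Limma voom gave 4 members and 2968 of all genes there, the fit on these groups alone gave 2 members and 2247 genes, and DESeq2 gave 0 members and 13 genes. Hk2 had 671, 592.5, 586.5 and 704 CPM in nicotine libraries, against 474, 430.0, 456 and 436.5 CPM in vehicle libraries. All nicotine libraries were above all vehicle libraries, and the log2 fold change was 0.51 ± 0.22 with an adjusted p of 0.404. Hk1 had 335, 295, 307 and 327 CPM in nicotine libraries, against 284, 232, 251 and 255 CPM in vehicle libraries, a log2 fold change of 0.31 ± 0.17. Pfkm was the other gene with groups apart, at 1393 to 1515 CPM in nicotine libraries and 1223 to 1344 CPM in vehicle libraries. Such separation upward was seen in 3 of 10 members and in 12.2% of all genes. The length correlation, with r of 0.82, 0.74 and 0.71 for Hk2, Hk1 and Pfkm, separated these groups as well. It was 0.0008444 to 0.32 in nicotine and -0.24 to -0.11 in vehicle libraries. Erythroid markers, 5 of 5 negative and 0 called, summed to 408 to 552.5 CPM in nicotine and 660.3 to 893 CPM in vehicle libraries. The adipocyte sum was 510 to 554 and 667 to 912 CPM, with 3 of 4 positive and 0 called. Their part was not tested. The remaining log2 fold changes included 0.21 for Slc2a1, 0.14 for Slc2a4, 0.16 for Pgk1 and 0.09 for Pkm.

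At the 3-week start 0 of 10 members passed in edgeR, where 0% of all genes passed and 3 members had an unadjusted p under 0.05. DESeq2 gave 0 members and 254 genes, limma voom gave 4 members and 2941 genes, and leaving out vehicle library 4 gave 5 members and 4793 genes. In limma voom the quality weight of vehicle library 4 was 0.152, against 0.374 and 2.49 for vehicle libraries 1 and 2. Pfkm had 1243, 1459, 1211 and 1479 CPM in nicotine libraries 2, 3, 5 and 6, against 916, 839 and 1304 CPM in vehicle libraries. The log2 fold change was 0.40 ± 0.13 with an adjusted p of 0.156. Pkm had 1570, 1664, 1513 and 1598 CPM in nicotine libraries, against 1371, 1308 and 1493 CPM in vehicle libraries, so that its groups did not overlap, with a log2 fold change of 0.19 ± 0.09. This was 1 of 10 members, and 2.52% of all genes separated upward. Slc2a4 had a log2 fold change of 0.29 ± 0.11, Slc2a1 0.26, Hk1 0.25, Pgk1 0.25 and Hk2 0.15. Without vehicle libraries 1 and 2 the values of Slc2a1, Hk1, Pgk1 and Hk2 were below 0, at -0.18, -0.26, -0.02 and -0.11. These comparisons share their vehicle libraries with vehicle against air.

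Nicotine against air sets the whole aerosol against air, and no member passed in edgeR at either age. At the 3-month start 0 of 10 members and 0% of all genes passed in edgeR, with 0 members at an unadjusted p under 0.05 and 0 members in DESeq2 or limma voom. Log2 fold changes ran from -0.11 to 0.27, the highest being that of Slc2a1. Slc2a1 had 26.3, 23.7, 18.4 and 21.9 CPM in nicotine libraries, against 17.6, 20.2, 16.5 and 20.6 CPM in air libraries. Its groups overlapped, and the log2 fold change of 0.27 ± 0.19 had a 95% interval of -0.11 to 0.65. In the authors' deposited table the log2 fold change of Slc2a1 was 0.26 with an unadjusted p of 0.0452 and an adjusted p of 0.938.

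At the 3-week start 0 of 10 members passed in edgeR, where 0.813% of all genes did, with 0 members at an unadjusted p under 0.05 and 0 members in DESeq2 or limma voom. Hk1 had 192, 256, 189 and 266 CPM in nicotine libraries, against 337, 233, 280.1 and 289 CPM in air libraries, a log2 fold change of -0.34 ± 0.17. Hk2 had 327, 593, 331 and 536 CPM in nicotine libraries, against 935, 393, 404 and 616 CPM in air libraries, a log2 fold change of -0.39 ± 0.22. Nicotine libraries 2 and 5 were low for both hexokinases, and their length correlations were -0.35 and -0.30, against 0.11 and 0.21 in nicotine libraries 3 and 6. Without air libraries 1 and 5 the log2 fold change of Hk2 was 0.15. In the authors' deposited table Hk1 had a log2 fold change of -0.35, an unadjusted p of 0.0333 and an adjusted p of 0.444. Of the pathway lists, 1 of 20 signalling genes passed, Irs2 at -3.01 ± 0.62 with an adjusted p of 0.0319, and the other lists held 0. That call was lost without air library 1, air library 5 or any 1 of the nicotine libraries.

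The age contrasts compare mice that started at 3 months with mice that started at 3 weeks, which differ in age at the end of exposure as well. In air 0 of 10 members passed in edgeR, where 0.00645% of all genes did, and DESeq2 and limma voom gave 0 as well. Hk1 averaged 340.0 ± 54.7 CPM at the 3-month start and 285 ± 42.7 CPM at the 3-week start (SD, n = 4 each), a log2 fold change of 0.26 ± 0.17 with an adjusted p of 0.681. Members' log2 fold changes ran from -0.12 to 0.26, and 0 had an unadjusted p under 0.05.

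In vehicle 0 of 10 members passed, beside 12.5% of all genes, with 2 members at an unadjusted p under 0.05, 0 in DESeq2 and 5 in limma voom, where 7208 of all genes passed. Hk1 had 284, 232, 251 and 255 CPM at the 3-month start, against 139.5, 164 and 264.5 CPM at the 3-week start, a log2 fold change of 0.43 ± 0.18 with an adjusted p of 0.105. Pfkm had 1331, 1243, 1223 and 1344 CPM at the 3-month start, against 916, 839 and 1304 CPM at the 3-week start, a log2 fold change of 0.33 ± 0.13 with an adjusted p of 0.0869. Vehicle library 4 of the 3-week start lay within the 3-month range for both genes, and libraries 1 and 2 lay below it. Without that library 5 members and 6306 genes passed, and without libraries 1 and 2 the values of Hk1 and Pfkm were -0.06 and -0.04. Slc2a4 and Pkm had every library of the 3-month start above every library of the 3-week start. They were 2 of 10 members, and 8.71% of all genes separated upward.

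In nicotine 0 of 10 members passed, beside 9.52% of all genes, with 2 members at an unadjusted p under 0.05, 1 in DESeq2 and 2 in limma voom, where 1975 and 3915 of all genes passed. Hk1 had 335, 295, 307 and 327 CPM at the 3-month start, against 192, 256, 189 and 266 CPM at the 3-week start. The groups did not overlap, and the log2 fold change was 0.49 ± 0.17 with an adjusted p of 0.0666. Such separation upward was seen in 1 of 10 members and in 9.58% of all genes. Hk2 had 671, 592.5, 586.5 and 704 CPM at the 3-month start, against 327, 593, 331 and 536 CPM at the 3-week start, a log2 fold change of 0.51 ± 0.22 with an adjusted p of 0.137.

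Some genes of the 5 lists passed between ages. Over all genes, 5.09% rose and 7.38% fell in vehicle, and 5.03% rose and 4.49% fell in nicotine. In vehicle, Pfkp rose by 0.43 ± 0.12 on the log2 scale as 1 of 23 other glycolysis genes, and 0 fell. Of 16 glycogen genes 5 rose and 1 fell. Pgm1 rose by 0.43, Gaa (the lysosomal glucosidase) by 0.45 and Gyg (glycogenin, the primer of glycogen) by 0.34, and Phkg1 (a phosphorylase kinase subunit) fell by 1.12 on the log2 scale. Mpc1, a subunit of the mitochondrial pyruvate carrier, rose by 0.27 as 1 of 6 transport genes. Of 20 signalling genes Irs2 rose by 3.60, while Slc2a4rg-ps, a pseudogene by its symbol, fell by 1.94 and Arrdc4 by 1.01 on the log2 scale. Of the 18 genes of the hypoxia list Bnip3 (a mitophagy receptor) rose by 0.86 and Ddit4 by 2.52. Ankrd37 fell by 2.74 on the log2 scale. Neutrophil markers moved with this contrast, with 3 of 4 called higher and sums of 3.38 to 11.8 CPM at the 3-month start and 0.0629 to 0.661 CPM at the 3-week start. Atrial markers were negative in 6 of 6 with 0 called, with sums of 166 to 236 CPM at the 3-month start and 149 to 577 CPM at the 3-week start, and the part of either list was not tested. Of the 12 list genes that the naming rule took in this contrast, 12 lost the call without vehicle library 1 of the 3-week start. The number was 8 without vehicle library 2 of that start and 0 without vehicle library 4 of it. Leaving out vehicle libraries 1, 2, 3 and 4 of the 3-month start lost 8, 6, 4 and 3.

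In nicotine, 2 of 23 other glycolysis genes rose and 2 fell, among them Pfkp, which rose by 0.53, and Bpgm (bisphosphoglycerate mutase) and Pfkfb1, which fell by 0.63 and 0.75 on the log2 scale. Of 16 glycogen genes Pgm2 rose by 0.75 and Phkg1 fell by 0.82 on the log2 scale. Slc16a3, the lactate exporter MCT4, rose by 1.43 ± 0.40, 1 of 6 transport genes. Of 20 signalling genes Irs2 rose by 3.29 and the pseudogene Slc2a4rg-ps fell by 1.47 on the log2 scale. Of the 18 genes of the hypoxia list 4 rose and 1 fell. Those that rose included P4ha2 and P4ha1 (collagen prolyl hydroxylases) by 0.41 and 0.44 and Egln3 by 0.62. Ankrd37 fell by 2.40 on the log2 scale. Erythroid markers were called lower in 5 of 5, with sums of 408 to 552.5 CPM at the 3-month start and 1087 to 1406 CPM at the 3-week start, and Bpgm is itself abundant in red cells. Neutrophil markers were called higher in 4 of 4, with sums of 4.22 to 14.2 CPM at the 3-month start and 0.232 to 0.494 CPM at the 3-week start, and the part of either list was not tested. Of the 13 list genes that the naming rule took in this contrast, leaving out 1 library lost between 1 and 8 calls, with 8 lost without nicotine library 2 of the 3-month start and 7 without nicotine library 2 or 5 of the 3-week start. In air 0 genes of these 5 lists passed.

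The effect of exposure was also compared between ages, as the 3-week effect minus the 3-month effect. For nicotine 0 of 10 members passed in edgeR, DESeq2 and limma voom, where 0.135% of all genes passed in edgeR and 0 members had an unadjusted p under 0.05. The largest differences were -0.51 ± 0.31 for Hk2 and -0.45 ± 0.26 for Slc2a1, and that of Hk2 was 0.04 without air libraries 1 and 5. For vehicle 0 of 10 members and 0% of all genes passed, also with 0 members at an unadjusted p under 0.05 and 0 in DESeq2 and limma voom. All 10 differences were below 0, from -0.50 ± 0.27 for Slc2a1 to -0.02, with -0.30 ± 0.15 for Slc2a4. The 5 calls of vehicle against air at the 3-week start were therefore not shown to be particular to that age.

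The genes whose log2 CPM was most like each member over the 23 libraries were taken from 12147 genes. Among the genes most like Pfkm were Pygm (Pearson r of 0.98), the muscle glycogen phosphorylase gene, and Tmem143. Among the genes most like Hk1 were Gpr146 (0.96) and Klc2, and Hk2 was most like Lpin1, a phosphatidate phosphatase (0.94), Bach1 and Socs7. Slc2a4 was most like Slc25a11, the mitochondrial oxoglutarate carrier (0.94), Pdk2, a pyruvate dehydrogenase kinase, and Fam234a. Slc2a1 was most like Mknk2 (0.91), Dusp4 and Sik3. Pgk1 was most like Htra1 (0.92), Tmem201 and Dolk, and Pkm was most like Tmem38a, a channel of the sarcoplasmic reticulum (0.93), Coq5 and Got1. Aldoa was most like Macrod1 (0.90), Uqcrc1 and Map1lc3a. Gpi1 was most like Dmwd (0.85), Sil1 and Csnk1g2. Ldha had the lowest best value, 0.78 with Rom1, ahead of Tmem14c and Ankrd9.

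Reads of near-identical copies could bear on some members. Copies of at least 95% identity over at least 200 bases were annotated for Gpi1, Aldoa, Pgk1, Pkm and Ldha. The counts at those in the count table, 2 of 4 copies for Pgk1 and 3 of 5 for Ldha, were at most 0.2% of the member's own. How reads that fit a member and a copy equally were counted is not stated, so these shares do not cover them. Genes that overlap a member held at most 1.2% of its counts, for Pfkm (Senp1 and Gm26513), and 1.05% for Pkm (Gm49759). No source used here states the strand setting of the counting, so reads of overlapping genes cannot be told apart.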

How the data were processed

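The authors deposited raw counts of reads per gene for 23 libraries, as whole numbers. The tools named in the submitters' processing notes are STAR 2.5.2b, Trimmomatic 0.36, DESeq2 and Subread 1.5.2, which holds featureCounts. Genome build, annotation and strandedness: not given in the sources used here. For nicotine against air the authors also deposited log2 fold changes and p-values, which are quoted where named. A deposited table of gene ontology terms names no comparison and was not used.

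The counts were fitted in edgeR 4.0.16 (R 4.3.3), with filterByExpr at a minimum count of 10 and TMM scaling. There was 1 robust quasi-likelihood fit of 6 groups with 17 residual degrees of freedom. The fit was also run on simulated counts, drawn separately for each gene with equal spread in all groups and no shifts of whole libraries. That run therefore does not bear on calls that rest on single libraries. Benjamini-Hochberg adjustment ran over 15500 genes, at a threshold of 0.05. Adjusted p-values are from this fit unless another is named. Levels are CPM, and log2 fold changes carry their SE. GENCODE vM21, matched on the IDs of 49056 genes, gave symbols, chromosomes and exonic lengths. Promoters came from RefSeq (GRCm38.p6).

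The members and lists were chosen with earlier results of these data known. All 10 members were tested in every comparison, and some values are given as a range. Up to 4 genes per list and comparison were named, those with the smallest p past the threshold, and 3 most-alike genes per member among those whose mean log2 CPM reached 1. A few genes that this rule takes are not reported here. Alternatives were RLE scaling, no filter, an exonic-length offset, DESeq2 1.42.0, limma 3.58.1 voom with quality weights, the compared groups alone, a replicate block, each library left out, and both pairs of 3-week libraries left out. Precision is limited by 3 or 4 libraries a group and, for Slc2a1, by counts of 151 to 370.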

Additional observations from a re-analysis of the deposited data

How the results depend on the processing

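Over 86 log2 fold changes and their alternatives, 1004 values kept their direction and side of the threshold, 284 lost a call, 35 gained one and 24 changed sign, and the cause was not tested. In vehicle against air at the 3-week start, where 5 members were called, no filter on low counts gave 2. The compared groups alone, the replicate block, and leaving out air libraries 1 and 5 or vehicle libraries 1 and 2 each gave 0. The labels do not say that equal numbers pair samples, so the numbers were not taken to do so. Correlations of the deviations of same-numbered libraries were mixed in sign, from -0.48 to 0.53. With group means of 3 or 4 libraries removed, such values cannot decide the question. No paired analysis was possible for nicotine against vehicle at the 3-week start because the groups share 1 number. With limma voom and quality weights, 4 members passed in vehicle against air and 4 in nicotine against vehicle at the 3-month start, 4 in nicotine against vehicle at the 3-week start, 5 between ages in vehicle and 2 in nicotine. The quality weight was lowest, at 0.152, for vehicle library 4 of the 3-week start. The compared groups alone gave 4 in vehicle against air and 2 in nicotine against vehicle at the 3-month start, and 1 between ages in nicotine, as did DESeq2 with 1. With each library left out in turn, counts ran from 0 to 7 in vehicle against air and 0 to 5 in nicotine against vehicle at the 3-week start, 0 to 5 between ages in vehicle, 0 to 1 between ages in nicotine and 0 to 1 for the difference of vehicle effects. The count of 7 and both counts of 5 came without vehicle library 4, as did the 1 for vehicle effects.

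Sign changes were near 0 or rested on the 3-week libraries named. In vehicle against air at the 3-week start, Gpi1 had log2 fold changes of -0.013 with RLE scaling, -0.013 with DESeq2, -0.042 without a filter, -0.002391 in the groups alone and -0.11 without vehicle libraries 1 and 2, and -0.079 to 0.044 with each library left out. Aldoa had -0.012 without a filter, -0.008402 with the length offset, -0.11 without vehicle libraries 1 and 2, and -0.085 to 0.091 with each library left out. Ldha in vehicle against air at the 3-month start had -0.030 with the length offset, and Slc2a1 there had -0.029 to 0.15 with each library left out. Without air libraries 1 and 5, Hk2 had 0.15 in nicotine against air at the 3-week start and 0.042 for the difference of nicotine effects, and Ddit4 had 0.002426 in vehicle against air. Without vehicle libraries 1 and 2, nicotine against vehicle at the 3-week start gave -0.18 for Slc2a1, -0.26 for Hk1, -0.11 for Hk2 and -0.022 for Pgk1, and the age contrast in vehicle gave -0.065 for Hk1 and -0.036 for Pfkm. Hk2 in nicotine against vehicle at the 3-week start had -0.020 to 0.30 with each library left out.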

Other observations

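Air libraries of the 3-week start differed among themselves in some list genes, chosen here after their values were seen. Ddit4, which restrains mTORC1, had 149, 14.9, 31.0 and 179 CPM in air libraries 1, 2, 4 and 5. Ankrd37, a hypoxia target, had 0.617, 12.2, 13.4 and 0.738 CPM in the same libraries, and Slc16a3, the lactate exporter, had 11.9, 3.67, 3.89 and 16.6 CPM. Libraries 1 and 5 thus stood together in each, high for Ddit4 and Slc16a3 and low for Ankrd37. In vehicle libraries of that start Ankrd37 had 14.5, 16.4 and 9.57 CPM, and in air libraries of the 3-month start it had 1.12 to 1.97 CPM. No label used here sets air libraries 1 and 5 apart from 2 and 4.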
